A study of Mus musculus with 444 samples.

Results

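Antigen presentation genes were followed cell by cell in the mouse mammary epithelium. The set holds 10 genes, matched through the Entrez gene identifiers of the count tables, of 25136 genes measured. Of these, 3 encode the classical class I molecule (B2m, H2-K1 and H2-D1), 4 the class II molecule and its chaperone (Cd74, H2-Aa, H2-Ab1 and H2-Eb1), and 3 the machinery that makes and transports class I peptides (Tap1, Psmb8 and Psmb9). All 10 were found in the tables. Values were taken from 323 of 444 cells, those with at least 100000 read pairs on genes and at least 1500 genes detected.

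The cells came from female FVB/NJ mice, an inbred laboratory strain, with no transgene or treatment in either group. The Puberty group held 171 retained cells of 221, from pools of 6 mice at about 5 weeks of age by the methods, whereas the headers of the count tables give them a younger age. The Adult group held 152 retained cells of 223, from 10-week-old mice pooled by 4 per sort. Both were sorted as cells that lacked CD45, CD31 and Ter119, the surface proteins of leukocytes, endothelium and red cells, and that carried CD24, and each cell was captured in its own chamber of a Fluidigm C1 chip, which takes cells of a limited size range. No label ties a cell to a mouse, sort or chip, so each stage is 1 sample, no difference below has a replicate check, no test was possible, and all intervals cover counting error only.

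Almost every nucleated cell displays class I molecules, made of a polymorphic heavy chain such as H2-K or H2-D and the small invariant chain β2-microglobulin. The peptides they carry are cut by the proteasome, in which the inducible subunits encoded by Psmb8, Psmb9 and Psmb10 can take the place of the standard subunits, and are pumped into the endoplasmic reticulum by the transporter of Tap1 and Tap2. Class II molecules are instead typical of dendritic cells, macrophages and B cells, where Cd74 supplies the invariant chain, although epithelia can switch class II on under interferon gamma through the transactivator Ciita. The mammary epithelium is built of an outer basal, contractile layer and an inner luminal layer, which holds progenitors and mature, hormone-sensing cells.

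B2m (gene 12010) lies on chromosome 2 from 122147687 to 122153082 in GRCm38.p6, the assembly known as mm10, and Cd74 (gene 16149), like B2m, lies outside the H2 complex. The other members lie in that complex on chromosome 17. H2-K1 (gene 14972) spans 33996012 to 34000619, Psmb9 (gene 16912) 34182030 to 34187330, Tap1 (gene 21354) 34187556 to 34197225, Psmb8 (gene 16913) 34198195 to 34201454, and H2-D1 (gene 14964) 35263094 to 35267497. Between Psmb8 and H2-D1 lie H2-Ab1 (gene 14961, 34263227 to 34269418), H2-Aa (gene 14960, 34282744 to 34287823) and H2-Eb1 (gene 14969, 34305867 to 34316674). Each value below counts read pairs over all exons of a gene, untranslated parts included.

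The promoters of the class I genes are printed because these genes were read in nearly every cell, and that of Tap1 because it is shared with Psmb9. Windows from 250 bases before to 50 bases after the gene start were taken from RefSeq for GRCm38.p6, which gave one for 8 of the members. H2-K1 has 2 windows, both inside the annotated span of the gene, and the first is shown. Capitals mark matches on either strand to a palindrome bound by NF-kB proteins in class I promoters (the first run of capitals in H2-K1 and in H2-D1), to AANNGAAA, the core bound by interferon regulatory factors, and to TGACG, the core bound by ATF and CREB proteins.
H2-K1, chr17:34000298-34000597, minus strand: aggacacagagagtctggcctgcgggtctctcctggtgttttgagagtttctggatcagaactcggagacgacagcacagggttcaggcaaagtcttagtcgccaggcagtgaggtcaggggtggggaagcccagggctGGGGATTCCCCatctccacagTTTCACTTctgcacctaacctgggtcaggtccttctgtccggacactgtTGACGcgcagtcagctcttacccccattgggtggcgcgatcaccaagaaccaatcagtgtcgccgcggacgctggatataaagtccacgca
H2-D1, chr17:35262844-35263143, plus strand: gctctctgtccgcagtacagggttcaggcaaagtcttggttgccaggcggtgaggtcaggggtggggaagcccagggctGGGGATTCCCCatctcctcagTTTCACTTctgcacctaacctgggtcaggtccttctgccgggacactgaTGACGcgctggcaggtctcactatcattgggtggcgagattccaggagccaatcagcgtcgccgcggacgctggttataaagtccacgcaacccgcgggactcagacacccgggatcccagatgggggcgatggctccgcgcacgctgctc
B2m, chr2:122147437-122147736, plus strand: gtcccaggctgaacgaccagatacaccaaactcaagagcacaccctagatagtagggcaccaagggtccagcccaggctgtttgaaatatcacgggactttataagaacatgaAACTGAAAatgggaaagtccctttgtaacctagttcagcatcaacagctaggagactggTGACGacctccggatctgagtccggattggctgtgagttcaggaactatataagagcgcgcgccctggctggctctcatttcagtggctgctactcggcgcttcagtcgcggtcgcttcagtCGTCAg
Tap1, chr17:34187306-34187605, plus strand: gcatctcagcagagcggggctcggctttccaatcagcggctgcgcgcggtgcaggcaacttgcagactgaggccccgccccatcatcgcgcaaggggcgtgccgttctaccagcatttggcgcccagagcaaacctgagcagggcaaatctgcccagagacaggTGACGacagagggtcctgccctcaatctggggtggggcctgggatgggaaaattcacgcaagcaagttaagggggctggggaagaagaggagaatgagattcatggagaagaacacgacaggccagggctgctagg
The H2-K1 and H2-D1 windows held all 3 motifs in the same order and aligned over 239 columns with 88.3% identity, including an identical run of 47 bases. The palindrome was found in only 10 of 32851 windows (0.0304%), whereas AANNGAAA was in 23.9% and TGACG in 20.8% of them. B2m held 1 match to AANNGAAA and 2 to TGACG, and Tap1 held 1 to TGACG. No match was found for the palindrome or AANNGAAA in the Tap1, Psmb8 and Psmb9 windows, which says only that these letters are not there. Tap1 and Psmb9 are read in opposite directions from starts with 225 bases between them, so that their windows share 275 bases.

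Retained pubertal cells had 101471 to 1354104 read pairs on genes and retained adult cells 100883 to 1049746, and every cell was thinned to 100000 read pairs, so that 1 read in a cell equals 10 CPM (read pairs scaled to a total of 1000000). Rn7sk, a small nuclear RNA, was read in each of the 107 retained adult cells numbered 48 to 188 and in 8 of the other 45 (17.8%), so adult values are also given for these sets apart. Epithelial markers were read in 168 of 171 pubertal and 151 of 152 adult cells. Cells were classed by the mean standardised level of 10 markers each as basal (108 cells), luminal progenitor (58) or mature luminal (103), where the best score led the next by at least 0.25, and 54 stayed unclassed. The classes are ranges of a score rather than types, and 41 cells lay within 0.1 of the required lead. A lead does not require a positive score: pubertal cells 149 and 107 were classed luminal progenitor with progenitor scores of −0.36 and −0.24. Fibroblast markers were read in 70 pubertal and 76 adult cells, with mean levels of 1251 and 998 CPM. By class the means were 675 CPM in basal, 1919 in luminal progenitor and 727 in mature luminal cells. The highest luminal progenitor cell stood at 36170 CPM. The part of these reads in the results was not tested.

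The class I genes were read in every retained cell of both stages. B2m was lowest at 0, had a median of 1040 and reached 8920 CPM in pubertal cells, and in adult cells it was lowest at 0, had a median of 1240 and reached 14480 CPM. It was without a read in 3 of the 323 cells. H2-K1, a classical heavy chain gene, ranged from 0 to 8420 CPM with a median of 340 in puberty and from 0 to 5590 with a median of 375 in the adult. H2-D1, its counterpart at the other end of the complex, ranged from 0 to 3800 with a median of 410 and from 0 to 12820 with a median of 470. The quartile ranges of the stages overlapped for all 3 genes, while the highest cells of B2m and H2-D1 were adult and that of H2-K1 pubertal.

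Summed over cells, class I reads were lower in puberty. The 3 genes together stood at 2767 CPM in pubertal cells (95% Poisson interval 2742 to 2792) and at 3893 CPM in adult cells (3862 to 3924), which is a log2 ratio of −0.49, where the median gene stood at 0.09. The ratio was −0.47 against adult cells 48 to 188 and −0.55 against the other adult cells. B2m had 1432 and 2011 CPM, a log2 ratio of −0.49, H2-K1 650.4 and 752 CPM, a ratio of −0.21, and H2-D1 684 and 1129.7 CPM, a ratio of −0.72. None of these passed the 2-fold mark set for a difference. Against adult cells 48 to 188 alone H2-D1 passed it, and against the other adult cells B2m did narrowly (log2 ratio −1.01). The latter set includes adult cell 30, described below, with 11050 CPM of B2m, and the ratio without that cell was not computed. The sign also held inside each class, with −0.81 in basal, −0.63 in luminal progenitor and −0.63 in mature luminal cells for the 3 genes together, and −0.16 in mature luminal cells against the other adult cells. The 2 sets of adult cells did not share the pattern gene by gene. B2m had 1639.8 CPM in cells 48 to 188 and 2893 CPM in the other adult cells, while H2-D1 had 1421 and 438 CPM there, which put the pubertal cells below the first set (log2 ratio −1.05) and above the second (0.64). H2-K1 had 765 and 722 CPM.

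**Figure D1:**
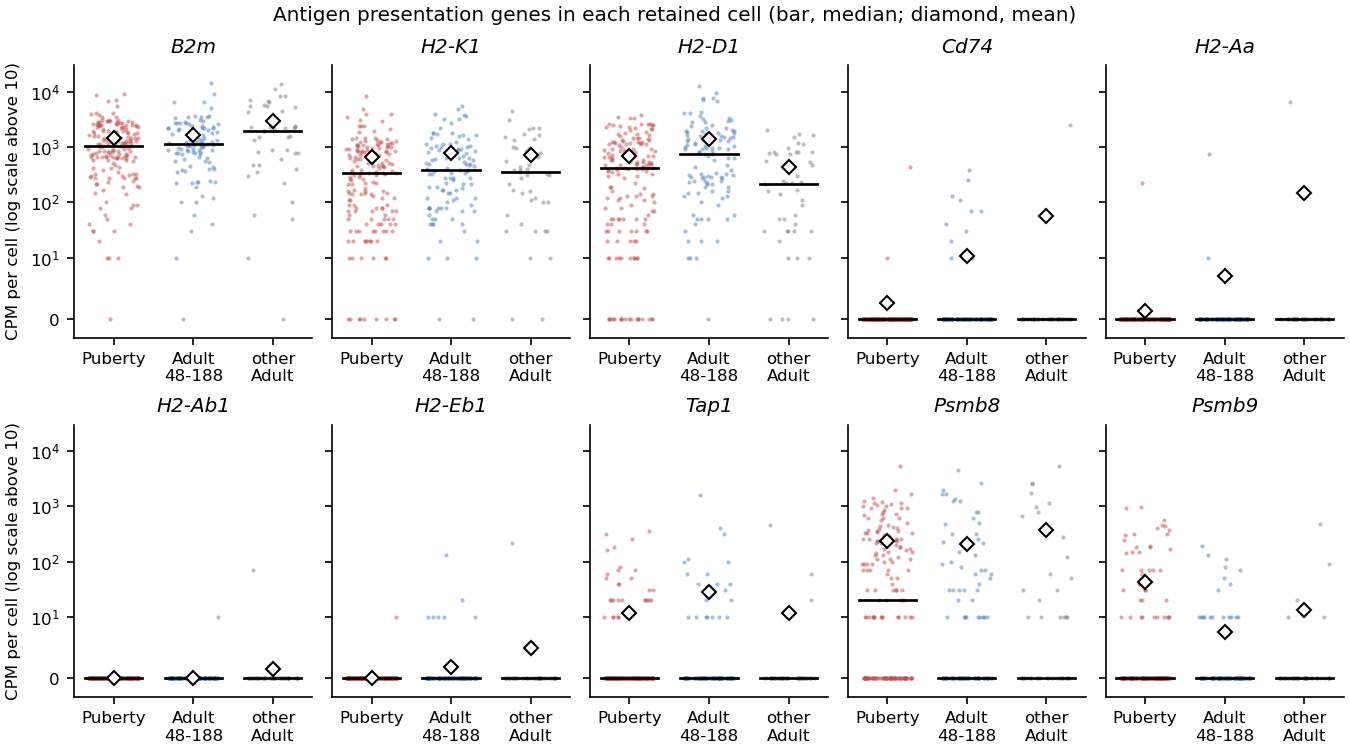
Level of each member in each retained cell in CPM, on an axis that is logarithmic above 10, for 171 pubertal cells, 107 adult cells numbered 48 to 188 and 45 other adult cells. Bars are medians and diamonds means over cells: B2m, H2-K1 and H2-D1 start from 0 in the 3 groups and overlap, with the highest H2-D1 cell at 3800 in puberty, 12820 in adult cells 48 to 188 and 2010 in the other adult cells, the class II genes are at 0 in nearly all cells, and Psmb8 is the processing gene with reads in the most cells.

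The balance between the heavy chain genes varied widely from cell to cell. Among cells with at least 10 reads of the pair, H2-D1 took a median of 55.8% of the H2-K1 and H2-D1 reads in puberty (145 cells, quartiles 25.5 and 79.8%). The median was 62.8% in adult cells 48 to 188 (102 cells) and 33.3% in the other adult cells (41 cells), with quartiles of 33.0 and 86.5% and of 7.69 and 63.6%. The quartile ranges overlapped in all 3 groups. H2-D1 took at most 10% of the pair in 14.5% of pubertal cells and at least 90% in 15.2%. In adult cells 48 to 188 these shares were 8.82 and 22.5%, and in the other adult cells 29.3 and 14.6%. Across all 323 cells the rank correlation of H2-K1 with H2-D1 was 0.21, over values that share each cell's depth. FVB/NJ carries another H2 haplotype than the C57BL/6 mouse of the reference genome, and heavy chain genes are close copies of each other, so that reads of 1 gene can be assigned to another. The counts of H2-K1, H2-D1 and their relatives are uncertain for that reason, while B2m has no such copies.

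**Figure D2:**
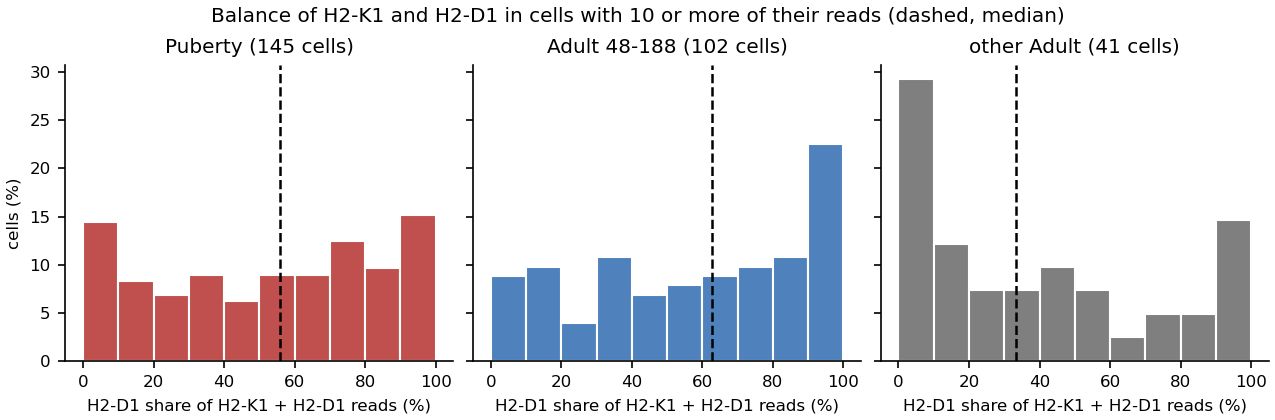
Percentage of cells (vertical axis) by the share of H2-K1 plus H2-D1 reads that came from H2-D1 (horizontal axis, %), in cells with at least 10 reads of the pair. The dashed medians stand at 55.8% in puberty, 62.8% in adult cells 48 to 188 and 33.3% in the other adult cells, and the cells spread over the whole scale in each panel.

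Among the classes, mature luminal cells had the most class I reads. B2m was lowest at 0, had a median of 885 and reached 8370 CPM in basal cells, ran from 10 to 11050 with a median of 790 in luminal progenitor cells, and from 0 to 8970 with a median of 1880 in mature luminal cells. The ranges overlapped, with the mature luminal median above the upper quartile of the basal cells, 1630 CPM. The sums were 1269.6 CPM in basal, 1309.7 in luminal progenitor and 2126 in mature luminal cells. The luminal progenitor sum includes adult cell 30. The 54 unclassed cells are in none of these sums and held the highest B2m cells, adult cells 169 and 23 at 14480 and 13620 CPM. Mature luminal over basal gave a log2 ratio of 0.82 in puberty, 1.33 in adult cells 48 to 188 (11 mature luminal cells) and 0.73 in the other adult cells (17 mature luminal and 14 basal cells). For the 3 genes together the ratio was 0.56 over all cells, from 2747 to 4046 CPM, and 0.93, 1.27 and 0.34 in the same 3 groups. H2-K1 did not keep that order: it was higher in mature luminal cells in puberty (1.07), alike in sum over all adult cells (0.02, 772.5 against 762 CPM) and lower in the other adult cells (−1.05). Luminal progenitor and basal cells lay close, with a log2 ratio of −0.12 for class I reads.

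The class II genes were at 0 in nearly all cells. Any class II read was found in 22 of 323 cells, 3 of 171 in puberty (1.75%, 95% exact binomial interval 0.363 to 5.04%) and 19 of 152 in the adult (12.5%, 7.70 to 18.8%). In adult cells 48 to 188 it was 17 of 107 (15.9%, 9.54 to 24.2%) and in the other adult cells 2 of 45 (4.44%, 0.543 to 15.1%). With 5 reads required, the shares were 0.585% of pubertal and 5.92% of adult cells. Cd74, the invariant chain, was read in 14 cells, H2-Eb1, a β chain gene, in 9, H2-Aa, an α chain gene, in 4 and H2-Ab1, its β chain partner, in 2. The median was 0 for each in every group. H2-Ab1 had no read in puberty, 0 of 171 cells, which allows a share of cells with a read of up to 1.75%. H2-Aa, H2-Ab1 and H2-Eb1 also lie in the H2 complex, where FVB/NJ carries another haplotype than the reference. Reads lost for that reason were not measured. Only 5 of the 22 cells had reads of more than 1 class II gene.

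A single adult cell, number 30, held 920 of the 1218 class II reads (75.5%). It had 6620 CPM of H2-Aa, 2510 of Cd74 and 70 of H2-Ab1, together with 11050 of B2m. It also had 4910 CPM of Cd53, 3060 of Fcer1g, 1190 of Lyz2, 470 of Tyrobp, 260 of C1qa and 4100 of Ctss, genes typical of macrophages and related cells, and 9 of the immune markers in all. Ptprc, which encodes CD45, the protein sorted against, was at 0. Of the epithelial markers Epcam stood at 30, Krt8 at 10 and Krt18 at 90 CPM. With Cd53, Retnla at 11790, Fcrls at 4810 and Cd209f at 4450 CPM led the genes by their level in this cell over the mean of the others. Its luminal progenitor score was 0.03, and among those markers it had 1880 CPM of Cd14, a gene of macrophages as well, 250 of Trf and 20 of Csn3.

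**Figure D3:**
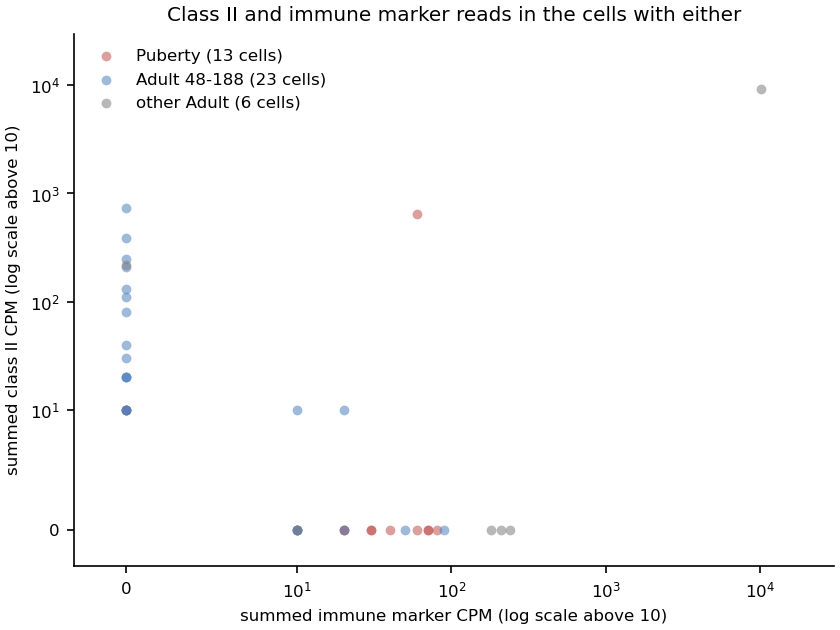
Summed class II CPM (vertical) against summed CPM of 22 leukocyte, macrophage or dendritic, B cell and T cell markers (horizontal) in the 42 cells with either, on axes logarithmic above 10, and cells with equal values lie on top of each other. Adult cell 30 stands alone at 9200 and 10170 CPM, while most other cells with class II reads have no immune marker read and most cells with an immune marker read have no class II read.

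The class II sums were given with and without that cell. Pubertal cells had 3.92 CPM and adult cells 75.7 CPM, which is a log2 ratio of −3.96. When the 4 cells with reads of at least 2 immune markers were left out, of which cell 30 alone had class II reads, they were 3.96 and 15.4 CPM, a ratio of −1.72. The pubertal sum rested on 1 cell too, number 177, with 65 of 67 reads. Leaving out cells 177 and 30 together gave −3.87, on 2 and 231 reads. Without the 4 cells with immune markers, the luminal progenitor class turned from far above basal (log2 ratio 3.54) to −0.07. That value rested on 1 cell, because the remaining 74 luminal progenitor reads all lay in adult cell 179. Outside cell 30 the highest were adult cell 179, with 740 CPM of H2-Aa, 3230 of Epcam and 41380 of Csn3 and no immune marker, pubertal cell 177, with 430 of Cd74, 220 of H2-Aa and 60 of immune markers, and adult cell 79, with 390 of Cd74. The cells with a read were most often basal: 13 of 57 basal cells among adult cells 48 to 188 (22.8%, 12.7 to 35.8%) had one, against 1 of 37 in puberty (2.70%, 0.0684 to 14.2%) and 0 of 14 in the other adult cells, which allows a share of up to 21.4%. The first 2 intervals overlap, and 7 of the 22 cells rested on 1 read. By number, 8 of 18 adult cells from 144 to 163 had a read (44.4%), and 9 of 89 in the rest of cells 48 to 188 (10.1%). That range was picked from these same reads and begins and ends at cells with a read. The choice itself raises its share, so no interval is given and no bunching can be read from it. Whether class or cell number goes with these reads was not tested. Ciita, the class II transactivator, had 1 read in puberty and none in the adult.

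Psmb8, the inducible subunit that stands in for Psmb5, set mature luminal cells apart. It was read in 31 of 108 basal cells (28.7%, 20.4 to 38.2%), 23 of 58 luminal progenitor cells (39.7%, 27.0 to 53.4%) and 84 of 103 mature luminal cells (81.6%, 72.7 to 88.5%). The lowest, median and highest cells were at 0, 0 and 4600 CPM in basal, 0, 0 and 2590 in luminal progenitor and 0, 150 and 5430 in mature luminal cells, so the ranges overlapped and the medians did not all lie at 0. In sum it stood at 119 CPM (113 to 126), 165 (154 to 175) and 467 (454 to 480.2). Mature luminal over basal gave a log2 ratio of 1.96 over all cells, 2.14 in puberty, 2.06 in adult cells 48 to 188 and 2.94 in the other adult cells. Without the highest cell of each side the ratios were 2.62, 2.90 and 4.02 in these 3 groups, no smaller than with it.

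Psmb9, the partner that stands in for Psmb6, followed the same order from a lower level. It was read in 9 of 108 basal cells (8.33%, 3.88 to 15.2%), 6 of 58 luminal progenitor cells (10.3%, 3.89 to 21.2%) and 39 of 103 mature luminal cells (37.9%, 28.5 to 48.0%). The highest cells were at 130, 450 and 980 CPM, with all medians at 0. The sums were 2.50, 13.8 and 67.2 CPM, and mature luminal over basal gave a log2 ratio of 4.28 over all cells (95% Poisson interval 3.77 to 4.79). It was 5.52 in puberty and 1.81 in adult cells 48 to 188, while in the other adult cells none of 14 basal and 4 of 17 mature luminal cells had a read, and 0 of 14 allows a share of up to 21.4%. Tap1, a subunit of the peptide transporter, had no such order. It was read in 14.8% of basal, 5.17% of luminal progenitor and 23.3% of mature luminal cells, its sums were 26.5, 1.21 and 17.2 CPM, and adult cell 127, in the basal class, held 1570 CPM and 54.9% of the basal reads. Mature luminal over basal gave 16.3 against 1.08 CPM in puberty, on 122 and 4 reads, and 19.6 against 39.7 CPM in the adult. Without the highest cell of each class, adult cells 6 and 127, the adult values were 3.70 and 17.9 CPM.

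Counted over the members, 2 of the 6 members that reached 20 CPM in a class were at least 2-fold higher in mature luminal than in basal cells (Psmb8 and Psmb9) and none lower, where 26.3% of all 7814 such genes were higher and 22.8% lower. In puberty alone it was 4 of 5, with H2-K1 and H2-D1 added, against 28.2% of all genes, and in the adult 3 of 6, with B2m added, against 30.9%. None was lower in either stage, where 26.5 and 31.7% of genes were. Luminal progenitor over basal gave Cd74 and H2-Aa as higher, both with 20 CPM only through cell 30, and Tap1 as lower, against 23.7 and 26% of genes.

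**Figure D4:**
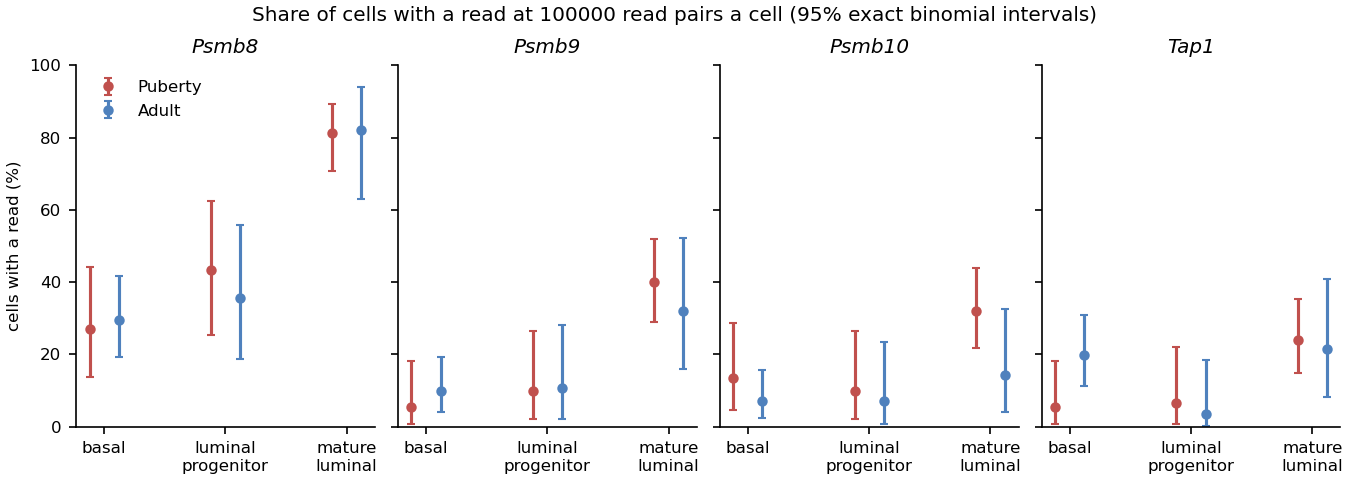
Percentage of cells with at least 1 read of 3 inducible proteasome subunits and of Tap1 by class and stage at 100000 read pairs a cell, with 95% exact binomial intervals. Psmb8 stands at 81.3 and 82.1% of mature luminal cells in puberty and the adult, against 27.0 and 29.6% of basal cells.

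Between the stages, Psmb9 was the member that was higher in puberty. Its highest cell stood at 980 CPM in puberty and 470 in the adult, with medians of 0, and it was read in 41 of 171 (24.0%, 17.8 to 31.1%) and 24 of 152 cells (15.8%, 10.4 to 22.6%). The sums were 42.0 CPM (39.0 to 45.2) and 9.28 CPM (7.81 to 10.9), a log2 ratio of 2.07, and the ratio was 2.33 against adult cells 48 to 188 and 1.59 against the other adult cells. Of the 8 members that reached 20 CPM in a stage, Psmb9 alone was at least 2-fold higher in puberty and Cd74 and H2-Aa at least 2-fold lower, where 19.5% of all 7811 such genes were higher and 14.4% lower. The latter pair reached 20 CPM through cell 30, and stood at −1.69 and −1.81 against adult cells 48 to 188, which do not hold it. Neither gene reached 20 CPM there, and single cells carried these ratios too. Pubertal cell 177 held all pubertal reads of H2-Aa and 43 of 44 of Cd74. Adult cell 179 held 74 of the 75 H2-Aa reads of cells 48 to 188. Against adult cells 48 to 188, Psmb9 was the 1 member of 6 that was higher and H2-D1 and Tap1 were lower (25.6 and 15.6% of genes). That of Tap1 rested on adult cell 127, without which this set had 13.3 CPM, against 11.9 in puberty. Against the other adult cells, Psmb9 was the 1 of 7 that was higher and B2m, Cd74 and H2-Aa were lower (28 and 20.2% of genes). The lower values all include cell 30, and that of B2m, at −1.01, lay close to the mark. Within classes Psmb9 was higher in puberty in mature luminal cells, 81.9 against 27.9 CPM (ratio 1.52), where 40.0% of pubertal and 32.1% of adult cells had a read and these intervals overlapped. In basal cells it was 0.811 against 3.38 CPM, on 3 and 24 reads.

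Psmb8 gave a different order between the stages by each measure. Its sum over all cells was nearly level, at 233 CPM against 253 CPM in the adult (log2 ratio −0.12), although a read was found in 61.4% of pubertal cells and in 43.4% of those from the adult. Mature luminal cells made up 43.9% of one stage and 18.4% of the other. Inside the classes the shares with a read differed little, 27.0 and 29.6% in basal, 43.3 and 35.7% in luminal progenitor and 81.3 and 82.1% in mature luminal cells, and the sums were lower in puberty in each, with log2 ratios of −0.63, −1.16 and −0.78. The median went the other way in mature luminal cells, 170 CPM in puberty and 65 in the adult, where the highest cell held 28.8% of the reads. Leaving out the highest cell of each side gave −0.48, −1.03 and −0.62. Against single adult sets the order did not hold throughout without those cells. It was 0.05 for luminal progenitor cells against adult cells 48 to 188 and 1.04 for basal cells against the 14 other adult ones, and of the 7 other adult luminal progenitor cells only the highest had a read, so that 70.0 CPM in puberty stood against 0. Tap1 had 11.9 and 23.1 CPM and was read in 17.5 and 15.8% of cells, and without adult cell 127, which held 44.7% of the adult reads, the adult value was 12.8 CPM.

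Set per kilobase of exon, the inducible subunits could be compared with the standard ones they replace, in RPKM, which divides the CPM by the exon length. In sum Psmb8 was level with Psmb5 in basal cells, 97.7 against 91.6, and higher in mature luminal cells, 382 against 101. The basal sum rested on few cells. Adult cell 81 alone had 4600 CPM, and without it the adult basal value fell from 136 to 72.3 CPM. Psmb9 was far below Psmb6 in both, 3.10 against 479 and 83.4 against 585. Psmb10, the third inducible subunit, lay below Psmb7 as well, at 10.6 against 151 and 42.2 against 210.4. The standard subunits were within 1.5-fold of each other between these 2 classes, with log2 ratios of mature luminal over basal of 0.14 for Psmb5, 0.29 for Psmb6 and 0.47 for Psmb7, against 1.92 for Psmb10. Within the stages Psmb7 varied more, at 1.17 in puberty and −0.45 in the adult, while Psmb10 stood at 1.91 and 1.88. In luminal progenitor cells Psmb5 stood at 42.8 and Psmb10 at 4.62. Psmb8 had 165 CPM there, before division by exon length, with adult cells 77 and 211 at 2590 and 2530 CPM.

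**Figure D5:**
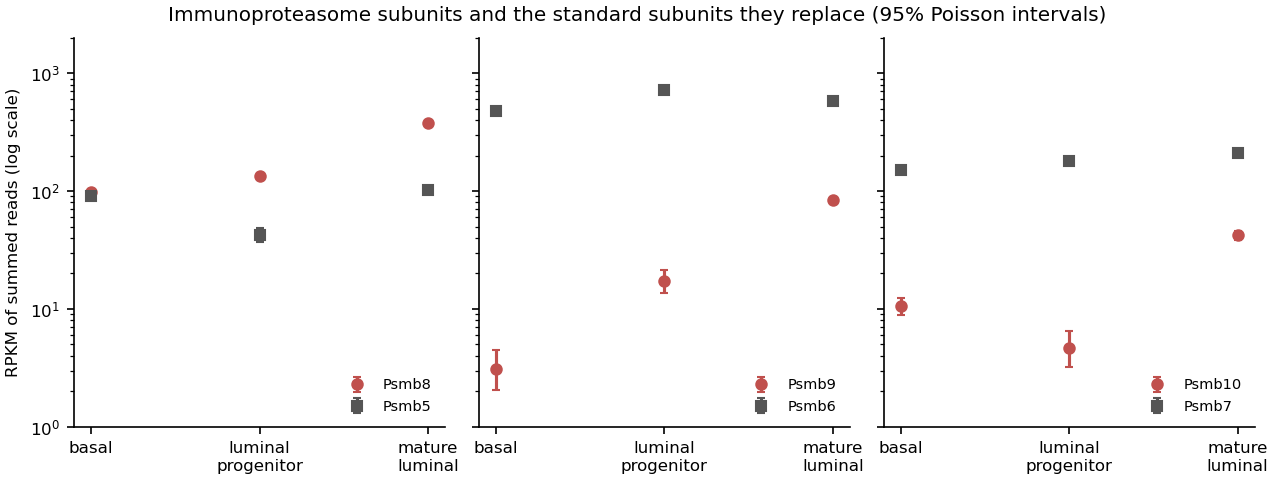
Level per exon length in RPKM, on a log axis, of each inducible proteasome subunit (circles) and the standard subunit it replaces (squares) by class, from summed reads with 95% Poisson intervals. Only Psmb8 reaches its standard counterpart, and all 3 circles stand highest in mature luminal cells.

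A wider list of 36 antigen presentation genes was counted beside the members. Of the 23 that reached 20 CPM in a stage, 4 were at least 2-fold higher in puberty and 2 lower (19.5 and 14.4% of all genes), with a median log2 ratio of 0.09, equal to that of all genes. Those higher included Erap1, which trims peptides (71.5 against 19.1 CPM, log2 ratio 1.85), and Ifngr2, a chain of the interferon gamma receptor (73.3 against 33.2, 1.12). The smallest ratios were those of Nlrc5, the class I transactivator (10.4 against 50.1, −2.17), Ctss, a protease that cuts the invariant chain (8.60 against 27.0, −1.54), and Ifi30, a reductase of antigen processing (52.0 against 89.8, −0.78). Nlrc5 was read in 11.1% of cells in puberty but 32.2% in the adult, and was lower in puberty than both adult sets, by −1.62 and −2.99. Ctss was read in 1 cell of each stage, cell 30 in the adult. In mature luminal over basal cells 6 of 23 were higher and none lower, against the 26.3 and 22.8% above, with a median of 0.34 where all genes had 0.11. By stage it was 10 higher and 2 lower of 23 in puberty (28.2 and 26.5% of all genes), and 5 and 2 of 24 in the adult (30.9 and 31.7%). Named after their values were seen, these included Psme1 and Psme2, the subunits of the proteasome activator, at 1.05 and 1.21, and Tap2, the other subunit of the transporter, at 2.29. Within the adult alone Psme1 stood at 0.15 and Psme2 at 0.73.

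Across the 323 cells the genes most like the summed class I reads were H2-Q4 (Spearman rho 0.39), a class I relative with which reads may be shared, Gm8909 (0.37), S100a11 (0.36), Ly6e (0.33) and S100a6 (0.32). Those most like the summed processing reads were Krt7 (0.46), Wfdc2 (0.45), Cited1 (0.44), AW112010 (0.44) and Tspan1 (0.44), of which Cited1 is one of the mature luminal markers that set the classes. For class II the highest was Ctps at 0.30, on 22 cells with any read. These are descriptions over 4790 genes read in at least 20% of cells, and all cells share the thinned depth. Psmb8 was read in 53 of the 65 cells with a Psmb9 read (81.5%), and Psmb9 in 31.0% of those with Psmb8. Tap1 and Psmb9 were read together in 14 cells, all of them pubertal, out of 54 with Tap1 and 65 with Psmb9. In puberty 46.7% of cells with Tap1 had a Psmb9 read, above the share of all pubertal cells given earlier (rho 0.28). Among mature luminal cells of both stages it was 45.8% (rho 0.15), inside the interval given earlier for that class. The part of class in this pairing was not tested. None of the adult cells that had either, 24 with Tap1 and 24 with Psmb9, had both (rho −0.19).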

How the data were processed

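Count tables of 444 single cells were used, 1 per cell. The deposited counts are raw read pairs per gene; the authors aligned them to mm10 with Subread and counted them with featureCounts (named in the submitters' processing notes) on the RefSeq annotation of Rsubread, and neither versions nor strand use are given in the sources used here. Without strand, reads of antisense neighbours cannot be told apart. There are no molecular identifiers, so PCR copies are counted and intervals cover counting error only. A combined table of the same cells was not used.

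Of 27179 identifiers, 25275 matched RefSeq genes of GRCm38.p6, from which 15 mitochondrial genes and 124 for ribosomal proteins were removed. Cells with at least 100000 read pairs and 1500 genes were retained, the study's minimums, though its own set of cells was not the same. No pair of cells had identical tables. Each cell was thinned to 100000 read pairs without replacement (seed 1), and sums over cells are given as CPM with exact Poisson intervals, shares of cells with exact Clopper-Pearson intervals, both at 95%. Where a share is 0, the limit is that of 3 cells. Log2 ratios use a prior of 1 CPM and list counts take genes with 20 CPM in 1 group and a log2 ratio past 1. RPKM divides by the exon length in the tables. Correlations are Spearman's and carry no p. No doublets were called.

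The members were named in full, from the wider list the 3 largest and 3 smallest ratios between stages among genes with 20 CPM, except 1 gene that is not reported here, and for each member group the 5 most correlated genes. The members, lists and markers were chosen with earlier results of these data known. Alternatives were another prior, unthinned sums, TMM scaling, leaving out cells, stricter filters and other class rules. The scripts were tested on simulated data. Python 3.11.15, numpy 2.4.6, pandas 2.3.3, scipy 1.17.1 and, for TMM factors alone, edgeR 4.0.16 in R 4.3.3 were used.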

Additional observations from a re-analysis of the deposited data

Results flagged for a closer look

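The 121 cells below the coverage filter entered no comparison, but they held reads of the members. Class I genes stood at 1493 CPM in the 50 pubertal cells (34 of them with a read) and 2225 CPM in the 71 adult cells (55 with a read), over their pooled 2342964 and 2428722 read pairs. Peptide processing genes stood at 179 CPM (11 cells) and 72.9 CPM (13 cells). These values lie above the limit that a count of 0 allows, the highest cell held 24.9 to 52.1% of each sum, and class II genes had no read in either set.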

How the results depend on the processing

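No paired analysis was possible because a cell's number in the labels names a cell and ties no pubertal cell to an adult one. Sums of the 3 member groups were recomputed in 12 ways: of 99 values, 34 moved by less than their counting interval, 62 by more and 3 changed from past 2-fold to the other sign. The cause was not tested unless named. Class I stayed lower in puberty in all 9 alternatives that bear on the stages, while peptide processing lay on both sides of 0. Class II was also lower in all 9, but against the other adult cells it rested on adult cell 30, with 920 of 942 reads. Without that cell this set had 5 CPM, all from adult cell 193, against 3.92 CPM in puberty. Inside the classes, class II was higher in puberty in basal cells (log2 ratio 0.53), where pubertal cell 177 held all 65 pubertal reads. Class II was lower in puberty in luminal progenitor (−8.48) and mature luminal cells (−2.97). Mature luminal over basal kept its sign for all 3 groups in all 12 alternatives. For class ratios, alternatives that name an adult set kept all pubertal cells and left out the remaining adult cells. In the other adult cells alone, without pubertal cells, class II stood at 3.80 for mature luminal over basal (17 and 14 cells). TMM scaling shifted puberty over adult by −0.13 for every gene before the prior was added.

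For puberty over adult, log2 ratios of class I, class II and peptide processing genes in that order, where they moved, were −0.57 and −2.40 (class I and II) from unthinned sums, −0.62 and −0.12 (class I and processing) under TMM, −0.54, −1.82 and 0.11 with 200000 read pairs and 2500 genes required, −0.45 and −3.57 (class I and II) over all gene identifiers, −0.47, −2.06 and 0.25 against adult cells 48 to 188, −0.55, −5.42 and −0.45 against the other adult cells, and −0.47 and −1.72 (class I and II) without immune-marked cells. Class II stood at −2.62 with a prior of 10 CPM.

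For luminal progenitor over basal in the same order they were 1.97 and −0.31 (class II and processing) unthinned and −0.046 (class I) under TMM. The stricter filter gave −0.28, 0.34 and −2.06, and all identifiers −0.055 and 3.21 (class I and II). With pubertal cells and adult cells 48 to 188 they were −0.26, −0.12 and −0.016. With pubertal cells and the other adult cells they were 0.19, 4.18 and 0.88. Without immune-marked cells they were −0.24 and −0.070 (class I and II), and with the larger prior 2.93 (class II). Leaving out the highest cells gave −0.19 and 0.66 (class I and II). No required lead gave 0.12, 3.16 and 0.57, and a lead of 0.5 gave −0.38, 0.34 and 1.45. Classes set by the share of markers detected gave −0.65, −6.01 and −1.65. Class II changed sign with adult cells limited to 48 to 188 and without immune-marked cells, both of which leave out adult cell 30. It also changed sign with classes by share, while class I changed sign in 2 and processing in 4 of 12 alternatives from values close to 0.

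For mature luminal over basal they were 0.59 and 2.00 (class I and processing) unthinned and 0.47 (class I) under TMM. The stricter filter gave 0.52 and 1.70 (class I and processing). With pubertal cells and adult cells 48 to 188 they were 0.59, −3.92 and 1.69. With pubertal cells and the other adult cells they were 0.72 and 2.55 (class I and processing). The larger prior gave −0.96 (class II), and leaving out the highest cells gave −3.01 and 2.22 (class II and processing). No lead gave 0.69 (class I), and a lead of 0.5 gave 0.44 and 3.01 (class I and processing). Classes by share gave 0.19, −4.16 and 1.04.

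Of 312 values for single members, 172 moved by less than their interval, 132 by more and 8 reversed, all luminal progenitor over basal. Cd74 reversed to −2.78 without the highest cells, −3.66 with the stricter filter, −3.62 with adult cells 48 to 188, −3.45 without immune-marked cells, −3.29 with a lead of 0.5 and −4.50 with classes by share, where H2-Aa stood at −5.36 and H2-Ab1 at −0.51. Values with at most 3 reads on both sides were not computed. A share of cells with a read depends on depth: with all reads, class II was read in 2.34% of pubertal and 14.5% of adult cells. With 1 sample a stage, differences between animals or sorts could not be measured.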

Other observations

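Of all 22 cells with a class II read, 9 had a read of Psmb8 (40.9%, 20.7 to 63.6%) and 1 of Psmb9 (4.55%, 0.115 to 22.8%). Over all 323 cells, 171 had a read of Psmb8 and 65 of Psmb9, and these shares lie inside the intervals.

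Adult cell 30 had no read of Tap1, Psmb8 or Psmb9, while its B2m level of 11050 CPM was the highest of the luminal progenitor class. Of the cells that carried immune markers, 3 of the 4 cells with reads of at least 2 immune markers had no class II read.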
